A study of Mus musculus with 24 samples.

Results

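The effect of a myocardial infarction (MI) on gene expression was compared between hearts with raised and hearts with reduced phosphoinositide 3-kinase (PI3K) activity. The measure was the difference of MI effects, (caPI3K MI minus caPI3K sham) minus (dnPI3K MI minus dnPI3K sham), on a log2 scale. A positive value means that the change from sham to MI was more positive in caPI3K than in dnPI3K hearts. The comparison rests on 16 of the 24 arrays in the series, 4 in each of 4 groups taken from the sample titles, and was read out over 14178 autosomal genes. The other 8 arrays, from nontransgenic (Ntg) mice after sham operation or MI, entered the estimate of spread and are given as a reference.

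All mice were of the FVB/N strain. The dnPI3K mice carried a dominant negative PI3K transgene, which the design text calls cardiac-specific and which reduces PI3K activity. The caPI3K mice carried a constitutively active PI3K transgene, which raises it. The labels name neither the promoters nor the founder lines. Surgery was done at 4 months, and the hearts were collected after a further 8 weeks, so the values describe a late stage after infarction. Hearts were homogenized individually, but no label ties each array to its own mouse. The p-values therefore rest on the spread between these arrays, which may in part be technical. The tissue is labelled as heart, with no statement on the scar.

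PI3K alpha lies downstream of the insulin and insulin-like growth factor 1 receptors and passes the signal to the kinase Akt. In heart muscle this pathway supports postnatal and exercise-induced growth, and it holds the FoxO transcription factors inactive. After an infarction the surviving muscle is known to return to a fetal pattern of gene expression, to lower its genes for mitochondrial energy production and to lie beside a growing collagen matrix. The comparison asks whether these parts of the response differed between the PI3K genotypes.

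The labelled tissue was checked by cardiomyocyte transcripts. *Myh6*, *Tnnt2*, *Tnni3*, *Actc1*, *Mb* and *Atp2a2* were each brighter than at least 99.7% of genes, with a lowest log2 signal of 15.06 on any array. Array pairs correlated at 0.911 to 0.964 and no pair was identical. Median signal lay between 102.9 and 118.5 except on dnPI3K MI replicate 1, at 150.7. The signal below which all but the top 1% of probe sets lay was 18260 to 20892 on the dnPI3K sham arrays, 16141 to 17234 on dnPI3K MI, 17362 to 17500 on caPI3K sham and 16086 to 17880 on caPI3K MI. The brightest genes were thus brighter on the dnPI3K sham arrays than in the other groups of the comparison. Of the 4 caPI3K sham arrays, replicates 1 to 3 carried Y-linked signal (*Uty* at 8.82 or above, *Xist* at 7.08 or below on the log2 scale) and the other 21 arrays did not (*Uty* at 7.18 or below, *Xist* at 12.65 or above). No label gives their sex. The effect of MI in caPI3K hearts is therefore measured across that difference, and family values without these 3 arrays follow the main ones. Without them fewer genes reach an unadjusted p below 0.05 in the difference at all, 506 positive and 320 negative.

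No autosomal gene passed the test for a difference of MI effects at an adjusted p below 0.05 (limma, Benjamini-Hochberg), so 0% of the 14178 genes were called in either direction. The smallest adjusted p was 0.0733, shared by 12 genes, and 20 genes lay below 0.1. At an unadjusted p below 0.05 there were 1440 genes, or 10.2%, of which 777 had a positive difference (5.48%) and 663 a negative one (4.68%). These last shares are the background for each gene family below. The median difference over all genes was -0.01, with a 5th percentile of -0.83 and a 95th percentile of 0.78. In a fit of the 16 arrays alone 61 genes were called, 48 positive and 13 negative, and with arrays weighted by quality 43 were called, 35 and 8.

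The MI effects that make up the difference were of unequal size. In dnPI3K hearts 1346 genes, or 9.49%, were called changed by MI, with 604 raised (4.26%) and 742 lowered (5.23%). In caPI3K hearts 153 genes, or 1.08%, were called, with 117 raised (0.825%) and 36 lowered (0.254%). These shares are the background for every count of MI calls in a gene list below. The caPI3K count fell to 9 without the 3 caPI3K sham arrays with Y-linked signal, which leaves 1 sham array in that group and assumes that it varies like the other groups. The dnPI3K count was 637 without the sham arrays numbered 415 to 418 in the sample titles, of which 2 are dnPI3K sham arrays. Across genes the MI effects of both genotypes correlated at r = 0.21, a description over genes, which are not independent replicates. The standard deviation of the MI effect over genes was 0.428 in dnPI3K and 0.354 in caPI3K hearts.

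**Figure D1:**
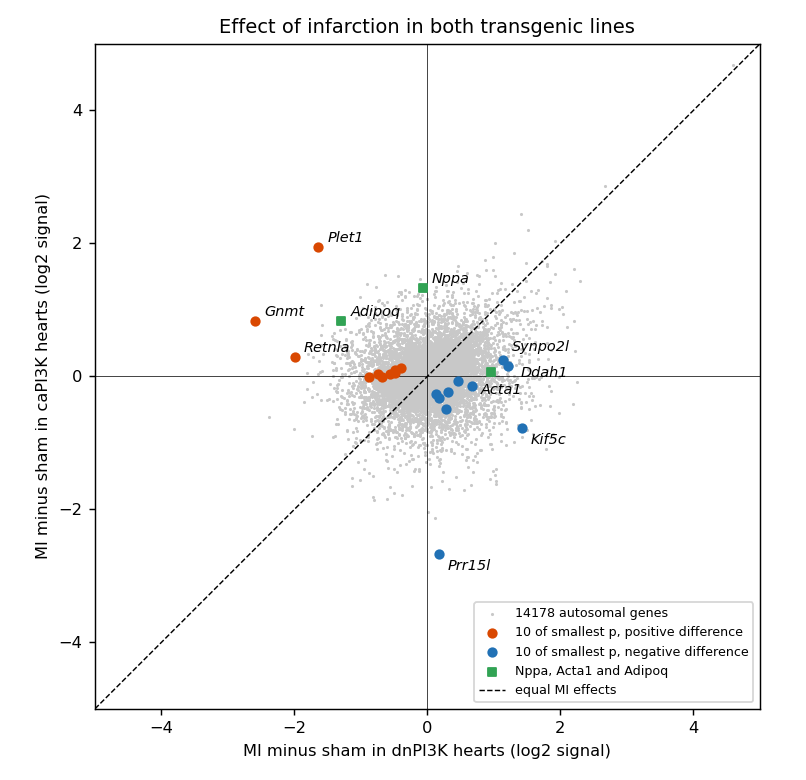
MI minus sham in dnPI3K hearts (x axis) against MI minus sham in caPI3K hearts (y axis), in log2 signal, for 14178 autosomal genes (grey) with the 10 genes of smallest p in each direction and *Nppa*, *Acta1* and *Adipoq* in colour. Genes far from the dashed line of equal effects lie mostly to the left or right of the centre, where the dnPI3K effect is the larger one; *Plet1*, *Nppa* and *Prr15l* lie high or low instead.

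The largest of the 10 positive differences of smallest p belonged to *Plet1* and *Gnmt*. *Gnmt*, glycine N-methyltransferase, which consumes the methyl donor S-adenosylmethionine, read 8.31, 7.93, 7.72 and 8.52 on the dnPI3K sham arrays and 6.46, 5.45, 5.53 and 4.67 on dnPI3K MI. On caPI3K arrays it read 5.33, 6.54, 4.87 and 5.16 after sham and 7.0, 6.90, 6.13 and 5.19 after MI. Every dnPI3K MI array lay below every dnPI3K sham array, while the caPI3K groups overlapped. The MI effect was -2.59 in dnPI3K hearts (limma adjusted p = 0.00106) and 0.83 in caPI3K hearts (adjusted p = 0.536), a difference of 3.43 (SE 0.69, adjusted p = 0.0733).

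*Plet1*, a cell surface protein of placental and epithelial progenitors, read 7.45, 7.24, 6.98 and 6.00 after sham and 5.17, 5.20, 5.83 and 4.90 after MI in dnPI3K hearts. In caPI3K hearts it read 4.66, 5.22, 5.21 and 5.38 after sham and 7.36, 7.14, 7.10 and 6.65 after MI. MI arrays were below sham in dnPI3K hearts and above sham in caPI3K hearts, with no overlap, and the difference was 3.59 (SE 0.72, limma adjusted p = 0.0733). Both genes are dim, and with a larger pseudocount of 56.2 the differences were 2.28 for *Gnmt* and 2.16 for *Plet1*. With the mean of all probe sets of a gene, *Plet1* was at 1.46.

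*Retnla*, a secreted resistin-like protein made by alternatively activated macrophages and in fat, read 10.43, 10.14, 10.10 and 10.11 on dnPI3K sham arrays and 8.76, 8.79, 7.58 and 7.66 on dnPI3K MI arrays. Its caPI3K values were 8.49, 9.09, 9.72 and 9.44 after sham and 9.57, 8.99, 10.26 and 9.09 after MI. It fell by 2.0 in dnPI3K hearts, and the caPI3K groups overlapped with an effect of 0.29, for a difference of 2.28 (SE 0.47, limma adjusted p = 0.0733).

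The other 7 positive genes of smallest p had smaller and more even differences. *Cox16*, an assembly factor of cytochrome c oxidase, read 11.16, 11.17, 11.44 and 11.28 after sham and 10.71, 10.36, 10.57 and 10.67 after MI in dnPI3K hearts. Its caPI3K values ran from 10.81 to 10.99 after sham and from 10.71 to 11.05 after MI. It fell by 0.68 in dnPI3K hearts and its caPI3K effect was -0.01, a difference of 0.67 (SE 0.14). *Tomm7*, a subunit of the outer membrane import channel of mitochondria, had a difference of 0.58 (SE 0.12), and *Naa38*, an auxiliary subunit of an N-terminal acetyltransferase, one of 0.55 (SE 0.10). *Ggct*, which acts in glutathione breakdown, stood at 0.78 (SE 0.15). *Nsmce1* (0.87, SE 0.18) and *Nsmce4a* (0.53, SE 0.11) encode subunits of the SMC5/6 chromosome complex, and *Ap4s1* (0.60, SE 0.12) a subunit of the AP-4 vesicle adaptor. All 7 fell in dnPI3K hearts, by 0.40 (*Nsmce4a*) to 0.87 (*Nsmce1*), with no overlap of the dnPI3K arrays, and their caPI3K effects lay between -0.01 and 0.13. Probe sets disagreed for some of them: with the mean over probe sets the difference was 0.22 for *Ggct*, 0.28 for *Cox16*, 0.54 for *Nsmce1* and 0.34 for *Nsmce4a*.

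Among the 10 negative differences of smallest p, *Kif5c*, a kinesin motor heavy chain best known from nerve cells, read 5.51, 6.72, 6.18 and 6.68 after sham and 8.08, 7.14, 7.32 and 8.24 after MI in dnPI3K hearts. In caPI3K hearts it read 7.17, 7.57, 7.37 and 7.17 after sham and 6.46, 6.92, 6.29 and 6.51 after MI. MI arrays were all above sham in dnPI3K hearts and all below sham in caPI3K hearts. The difference was -2.20 (SE 0.44, limma adjusted p = 0.0733), from a rise of 1.42 in dnPI3K hearts and an effect of -0.78 in caPI3K hearts (adjusted p = 0.267).

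*Ddah1* degrades asymmetric dimethylarginine, an inhibitor of nitric oxide synthase. It read 8.25, 8.25, 8.71 and 8.69 on dnPI3K sham arrays and 9.84, 9.65, 9.38 and 9.90 on dnPI3K MI. The caPI3K arrays were already high after sham, at 9.83, 9.99, 9.88 and 9.54, and read 9.83, 10.04, 9.95 and 10.01 after MI. The dnPI3K sham group thus stood below the other groups of the comparison. The difference was -1.07 (SE 0.22, limma adjusted p = 0.0733).

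*Synpo2l*, a Z-disc protein that binds actin and alpha-actinin, followed a similar order. It read 13.03, 12.66, 12.53 and 12.86 after sham and 13.88, 14.23, 13.77 and 13.75 after MI in dnPI3K hearts, and 13.42, 13.45, 13.56 and 13.37 after sham and 13.77, 13.61, 13.61 and 13.80 after MI in caPI3K hearts. It rose by 1.14 in dnPI3K hearts and the caPI3K effect was 0.24 (limma adjusted p = 0.536), a difference of -0.89 (SE 0.20). The mean over its probe sets gave -0.35.

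*Mybpc2*, the fast skeletal myosin-binding protein C, was one of 2 genes among these 20 that were called for MI in caPI3K hearts. It read 10.45, 10.33, 10.39 and 10.64 after sham and 9.98, 10.04, 9.84 and 9.97 after MI there, a fall of 0.50 (limma adjusted p = 0.0412). In dnPI3K hearts it read 9.13, 9.20, 8.70 and 9.20 after sham and 9.60, 9.35, 9.17 and 9.24 after MI, which overlap. *Prr15l*, a gene of little known function, was the other one. It read 6.87, 7.08, 6.87 and 7.0 after sham and 5.18, 4.05, 3.92 and 4.00 after MI in caPI3K hearts, where the lowest values are close to the floor set by the pseudocount. Its difference of -2.84 (SE 0.62) was -1.47 with the larger pseudocount.

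The remaining negative genes of smallest p were *Ddr1*, a collagen-binding receptor tyrosine kinase (-0.82, SE 0.17), *Adgrl2*, a latrophilin adhesion receptor (-0.54, SE 0.13), *Trp53bp1*, a DNA double-strand break protein (-0.53, SE 0.13), *Me1*, the cytosolic malic enzyme that makes NADPH (-0.50, SE 0.12), and *Ppp2r2a*, a regulatory subunit of protein phosphatase 2A (-0.40, SE 0.10). *Ddr1* rose by 0.67, *Trp53bp1* by 0.46 and *Adgrl2* by 0.31 in dnPI3K hearts. *Me1* and *Ppp2r2a* were called in neither genotype. The value of *Ddr1* rests on the chosen probe set, since the mean over its probe sets was -0.05, and *Trp53bp1* stood at -0.17 by that mean.

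**Figure D2:**
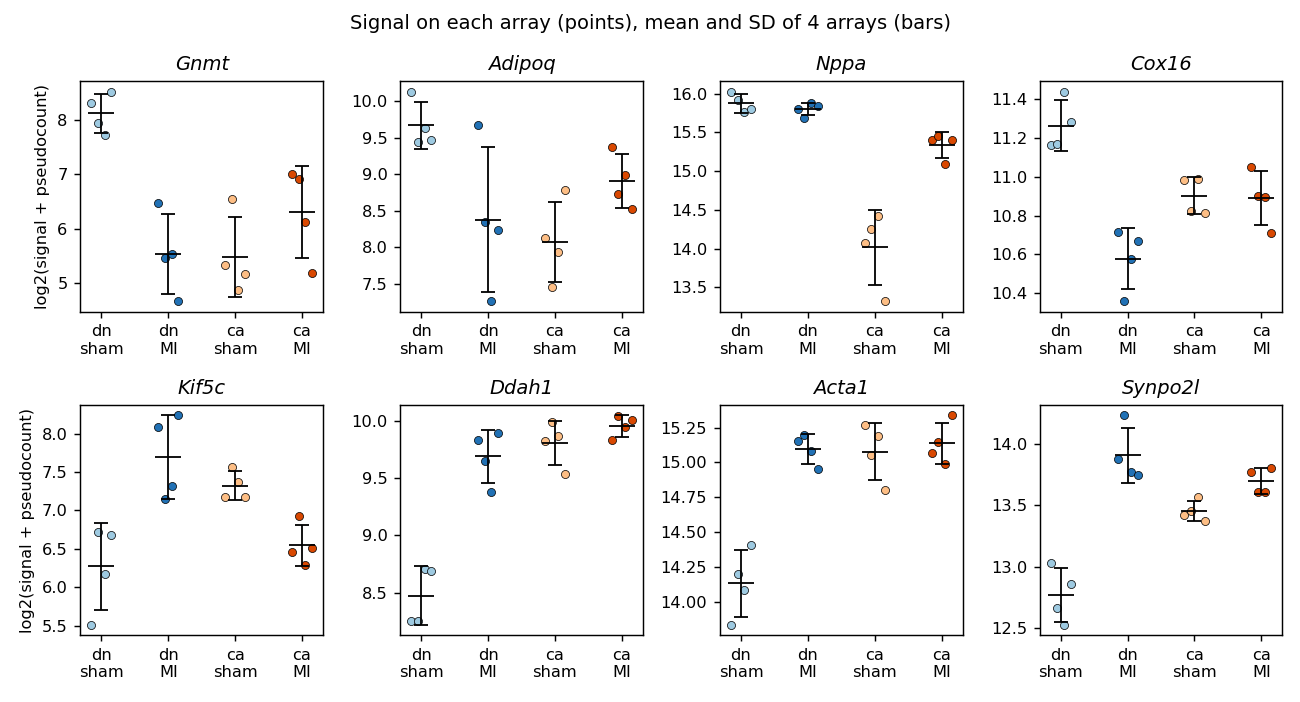
Log2 signal of 8 genes on each of the 4 arrays per group (points) in dnPI3K (dn) and caPI3K (ca) hearts, with the mean and SD (bars). *Gnmt* fell and *Ddah1*, *Acta1* and *Synpo2l* rose from dnPI3K sham to dnPI3K MI, towards values near those of both caPI3K groups, while *Nppa* rose between the caPI3K groups and *Kif5c* after MI lay above sham in dnPI3K and below sham in caPI3K hearts.

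Among these 20 genes the dnPI3K MI effect was the larger one in 15. For 16 of the 20 the MI effect was called in dnPI3K hearts and for 2 in caPI3K hearts. The dnPI3K MI arrays did not overlap dnPI3K sham for 16 of the 20, where 13.5% of all genes show no overlap, and the caPI3K arrays did not overlap for 8, where 9.39% do. In 15 of the 20 the gap between caPI3K and dnPI3K hearts was smaller after MI than after sham. The MI effect in Ntg hearts, whose arrays the difference does not use, lay between the caPI3K and dnPI3K effects for 19 of the 20. The genes were picked by the difference itself, so these counts describe them and test nothing. All 20 kept their sign in each of the 12 alternative settings and in the 16 fits that left out 1 array.

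Genes of wall stress and the fetal pattern had differences of both signs. *Nppa* encodes atrial natriuretic peptide, a hormone released on stretch. It was high on every dnPI3K array, at 16.03, 15.91, 15.76 and 15.80 after sham and 15.80, 15.69, 15.88 and 15.84 after MI. In caPI3K hearts it read 14.07, 14.25, 14.41 and 13.32 after sham and 15.40, 15.45, 15.10 and 15.40 after MI. *Nppa* rose by 1.32 in caPI3K hearts (limma adjusted p = 0.0119) with no overlap, and its dnPI3K effect was -0.07 (adjusted p = 0.918). The caPI3K MI arrays still lay below all dnPI3K arrays. The difference of 1.39 (SE 0.39, 95% interval 0.60 to 2.19) missed the threshold at an adjusted p of 0.181 and was called only in the fit of 16 arrays alone (adjusted p = 0.0137). The dnPI3K values are near the top of the signal range. There *Nppa* averaged 15.87 after sham and 15.80 after MI, and *Myh6*, among the brightest genes, 16.03 and 15.77. Whether that range limited a rise of *Nppa* in dnPI3K hearts was not tested.

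*Nppb*, the B-type natriuretic peptide, rose by 0.52 in caPI3K hearts (limma adjusted p = 0.0176), from 14.69, 14.48, 14.93 and 14.26 after sham to 15.22, 15.06, 14.98 and 15.21 after MI. It read 15.11 to 15.46 after sham and 15.37 to 15.44 after MI in dnPI3K hearts. Its difference was 0.42 (SE 0.16, adjusted p = 0.354), 0.18 after quantile normalization and 0.74 without the arrays with Y-linked signal. Of the 12 genes of the natriuretic peptide system tested, which include receptors and processing enzymes, these 2 were at an unadjusted p below 0.05. The next smallest p belonged to the clearance receptor *Npr3*, with a difference of -0.37 (SE 0.21).

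*Acta1*, the skeletal alpha-actin of the fetal and stressed heart, showed the opposite order. It read 13.84, 14.20, 14.09 and 14.41 on dnPI3K sham arrays and 15.15, 15.19, 15.08 and 14.95 on dnPI3K MI, a rise of 0.96 (limma adjusted p = 6.72e-04). In caPI3K hearts it was at 15.27, 15.05, 15.19 and 14.80 after sham and 15.07, 15.15, 14.99 and 15.34 after MI. The 12 arrays outside dnPI3K sham lay together between 14.80 and 15.34. The difference was -0.90 (SE 0.24, adjusted p = 0.179).

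Of the 17 fetal and wall-stress genes tested, 6 had a negative and 2 a positive difference at an unadjusted p below 0.05, or 35.3% and 11.8% against backgrounds of 4.68% and 5.48%. The 2 positive ones were *Nppa* and *Nppb*. The median difference was -0.29, from median MI effects of 0.19 in dnPI3K and 0.02 in caPI3K hearts. Without the caPI3K sham arrays with Y-linked signal, which leaves 1 sham array in that group, the median difference was -0.15. *Myh7*, the slow beta myosin heavy chain, read 13.02 to 14.99 after sham and 14.75 to 15.06 after MI in dnPI3K hearts and 14.15 to 14.81 over the caPI3K arrays, and its difference of -0.54 had a 95% interval of -1.52 to 0.44. *Rcan1*, an inhibitor of calcineurin and its reporter in muscle, rose by 1.35 in dnPI3K hearts and had an effect of 0.65 in caPI3K hearts, a difference of -0.70 (SE 0.30, limma adjusted p = 0.421). *Ankrd1*, a stress-induced titin-associated protein, was between 15.37 and 15.78 on all 16 arrays.

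Collagen genes were called raised by MI in both genotypes, more of them in dnPI3K hearts. Few had a difference at an unadjusted p below 0.05, but most differences were negative. In a heart homogenate more matrix-producing cells and more transcript per cell cannot be told apart. Over all genes, 4.26% were called raised in dnPI3K and 0.825% in caPI3K hearts. Of 22 collagen genes, 16 were called raised by MI in dnPI3K hearts and 5 in caPI3K hearts, and 0 were called lowered in either. The median MI effects were 0.92 and 0.66, and the median difference was -0.31 (-0.12 without the sham arrays numbered 415 to 418). The difference was positive for 4 of the 22, against 6964 of all 14178 genes. At an unadjusted p below 0.05, 3 collagens had a negative difference (13.6%) and 1 a positive one (4.55%), against backgrounds of 4.68% and 5.48%.

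*Col1a1* and *Col3a1*, the fibrillar collagens of scar, differed between the genotypes by no more than their spread. Their differences were -0.39 (95% interval -1.39 to 0.60) and -0.38 (-1.11 to 0.36), and both turned positive without the sham arrays numbered 415 to 418, at 0.17 and 0.10. *Col4a2*, a basement membrane collagen, rose by 0.94 in dnPI3K hearts and had an effect of 0.31 in caPI3K hearts, a difference of -0.63 (SE 0.26). *Col4a3* stood at -0.98 (SE 0.46). *Col14a1*, a fibril-associated collagen, ran the other way. It read 10.25, 10.66, 10.65 and 10.37 after sham and 11.06, 11.39, 11.27 and 11.66 after MI in dnPI3K hearts, and 8.67, 8.94, 9.24 and 9.71 after sham and 10.95, 10.74, 10.91 and 10.99 after MI in caPI3K hearts. It rose in both, by 0.86 and 1.75, and the difference was 0.89 (SE 0.28, limma adjusted p = 0.245).

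*Postn*, periostin of activated fibroblasts, rose by 1.80 in dnPI3K and 1.66 in caPI3K hearts, with a difference of -0.14 (95% interval -1.03 to 0.75). Matrix crosslinking and collagen processing enzymes had mostly negative differences. Of 16 genes tested, 14 had a negative difference, 7 of them at an unadjusted p below 0.05 (43.8% against 4.68%), and 0 a positive one at that level. The median difference was -0.36, from median MI effects of 0.56 in dnPI3K and 0.24 in caPI3K hearts. Over the arrays, the list median relative to each gene's mean was -0.24 to -0.13 on dnPI3K sham, 0.22 to 0.48 on dnPI3K MI, -0.16 to -0.07 on caPI3K sham and -0.03 to 0.20 on caPI3K MI. MI and sham arrays did not overlap in either genotype, and dnPI3K MI lay above caPI3K MI.

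*P4ha1*, a catalytic subunit of prolyl 4-hydroxylase, read 9.67, 9.74, 10.15 and 10.03 after sham and 10.25, 10.60, 10.48 and 10.63 after MI in dnPI3K hearts, a rise of 0.60. It was between 10.42 and 10.74 on all caPI3K arrays, for a difference of -0.56 (SE 0.21, limma adjusted p = 0.33). *P4ha2*, another catalytic subunit of prolyl 4-hydroxylase, was at -0.40 (SE 0.17), and *Plod2*, a lysyl hydroxylase, at -0.38 (SE 0.14). Without the caPI3K sham arrays with Y-linked signal the list median was -0.30 and 0 genes reached an unadjusted p below 0.05.

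Other matrix lists were mixed. *Tgfb2*, a TGF-beta ligand, read 9.32, 9.73, 9.28 and 9.25 after sham and 10.65, 11.24, 10.72 and 10.68 after MI in dnPI3K hearts, against 9.48, 9.71, 9.67 and 9.35 after sham and 10.03, 9.83, 10.12 and 9.89 after MI in caPI3K hearts. No MI array overlapped sham in either genotype, and all dnPI3K MI arrays were above all caPI3K MI arrays. *Tgfb2* rose by 1.43 in dnPI3K hearts and had an effect of 0.41 in caPI3K hearts (limma adjusted p = 0.373), a difference of -1.01 (SE 0.27, adjusted p = 0.176). It was the only one of 24 TGF-beta and BMP genes at an unadjusted p below 0.05, and the list median was -0.17 (-0.08 without the arrays with Y-linked signal). *Smad2* followed at -0.34 and the receptor *Bmpr1a* at -0.21.

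Of 19 matricellular proteins, which signal from the matrix to cells, 3 had a negative and 2 a positive difference at that level, with a median of -0.02. *Ccn3* was at -0.99 (SE 0.29), *Sparc* at -0.55 (SE 0.18) and *Smoc2* at 0.42 (SE 0.15). *Sparc* rose by 0.85 in dnPI3K hearts, and *Smoc2* by 0.54 in caPI3K hearts. *Mmp14*, a membrane metalloproteinase that activates *Mmp2*, rose by 1.03 in dnPI3K hearts and had a difference of -0.74 (SE 0.32), the only one of 16 metalloproteinases and TIMPs at an unadjusted p below 0.05. Among 24 Wnt genes *Fzd2*, a receptor, was at -0.81 (SE 0.31), *Dkk3* at -0.85 (SE 0.33) and the ligand *Wnt4* at 1.35 (SE 0.64). *Wnt4* is dim, with group means of 5.88 to 6.84. The elastic fibre list had a median of -0.18 (-0.06 without the sham arrays numbered 415 to 418), and 6 of its 15 genes had a positive difference. At an unadjusted p below 0.05, 3 were negative (20%) and 1 positive (6.67%). *Fbln2* was at -0.58 (SE 0.20) and *Ltbp3* at -0.51 (SE 0.20), and the positive one, *Fbn2*, at 1.18 (SE 0.57).

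Most genes for the respiratory chain were called lowered by MI in dnPI3K hearts and 0 of them in caPI3K hearts. Over all genes, 5.23% were called lowered in dnPI3K and 0.254% in caPI3K hearts. Complex I takes electrons from NADH. Of its 32 genes tested, 29 were called lowered in dnPI3K hearts, and the median MI effects were -0.34 in dnPI3K, -0.07 in caPI3K and -0.21 in Ntg hearts. The difference was positive for 31 of the 32, and 22 were at an unadjusted p below 0.05 (68.8% against 5.48%), with 0 negative ones. The median difference was 0.27. For the 41 genes of complexes II to V the corresponding count was 22 (53.7%), with 30 called lowered in dnPI3K hearts and a median difference of 0.24.

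*Ndufs4*, an accessory subunit of complex I, read 13.59, 13.45, 13.46 and 13.43 after sham and 13.08, 12.93, 13.01 and 12.93 after MI in dnPI3K hearts. It read 13.41, 13.33, 13.31 and 13.34 after sham and 13.39, 13.35, 13.23 and 13.29 after MI in caPI3K hearts. The dnPI3K MI arrays were below all others, and the difference was 0.47 (SE 0.11, limma adjusted p = 0.101). *Ndufa6* was at 0.43 (SE 0.11) and *Ndufa5* at 0.43 (SE 0.12). In cytochrome c oxidase, *Cox8b* fell by 0.50 and *Cox7a1* by 0.47 in dnPI3K hearts with differences of 0.44 (SE 0.11) and 0.46 (SE 0.12), and *Atp5g2*, the membrane ring subunit of ATP synthase, had one of 0.48 (SE 0.13).

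The result depended on the scaling. Quantile normalization gives every array the same distribution and moves the median difference of all genes from -0.01 to 0.02. After it the complex I median was 0.04, with 3 of 32 genes positive at an unadjusted p below 0.05. Complexes II to V were at 0.05 with 6 of 41. Of all 14178 genes, 742 were positive and 580 negative at that level after quantile normalization. These are the background for the counts in that setting here and below. Without the caPI3K sham arrays with Y-linked signal the medians were 0.26 and 0.24, with 5 and 3 genes. On single arrays the complex I median relative to each gene's mean was 0.30, 0.10, 0.10 and 0.11 on dnPI3K sham, -0.19, -0.25, -0.15 and -0.23 on dnPI3K MI, -0.01 to 0.04 on caPI3K sham and -0.17 to 0.03 on caPI3K MI. On 2 Ntg sham arrays it was 0.30 and 0.32. The summed signal of 15 cardiomyocyte markers also ran higher on dnPI3K sham, at 699935 to 891973, than on dnPI3K MI, at 627839 to 701735, with 648803 to 686935 on caPI3K sham and 597029 to 706091 on caPI3K MI; its part in the result was not tested.

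Ribosomal protein genes had differences of the same sign. Of 40 genes of the cytosolic ribosome 30 had a positive difference at an unadjusted p below 0.05 (75%) and 0 a negative one, with a median of 0.31. The MI effect had a median of -0.25 in dnPI3K hearts, where 13 genes were called lowered, and 0.05 in caPI3K hearts, where 0 were called. In sham hearts the same genes were lower in caPI3K than in dnPI3K hearts by a median of 0.33, and after MI by 0.03. After quantile normalization the median was 0.09 with 6 genes at that level, and without the arrays with Y-linked signal it was 0.29 with 8. *Rpl35* read 15.04, 14.82, 14.70 and 14.83 after sham and 14.66, 14.34, 14.53 and 14.47 after MI in dnPI3K hearts, and 14.31, 14.14, 14.36 and 14.38 after sham and 14.49, 14.55, 14.38 and 14.55 after MI in caPI3K hearts. Its difference was 0.54 (SE 0.13, limma adjusted p = 0.163). *Rpl6* stood at 0.43 (SE 0.12) and *Rpl11* at 0.39 (SE 0.11). Ribosomal protein genes have many processed pseudogenes, and probe sets may share signal with them.

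The mitochondrial ribosome translates the subunits encoded in mitochondrial DNA. Of 65 genes, 19 had a positive difference at an unadjusted p below 0.05 (29.2%) and 0 a negative one, with a median of 0.15. After quantile normalization there were 16 and 1 and a median of 0.10, and without the arrays with Y-linked signal 9 and 1 and a median of 0.14. In dnPI3K hearts 28 were called lowered after MI and in caPI3K hearts 0. The list median was -0.24 to -0.17 on the dnPI3K MI arrays and -0.08 to 0.14 on the other 12 arrays of the comparison, with no overlap. *Mrpl22* read 11.94, 11.76, 11.92 and 11.89 after sham and 11.51, 11.43, 11.42 and 11.47 after MI in dnPI3K hearts and 11.83 to 12.04 on all caPI3K arrays, a difference of 0.40 (SE 0.10, limma adjusted p = 0.137). *Mrpl11* was at 0.33 (SE 0.09) and *Mrpl47* at 0.47 (SE 0.13).

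Because most of these nuclear-encoded genes had a positive difference (31 of 32 in complex I, 41 of 41 in complexes II to V, 37 of 40 and 51 of 65 in the cytosolic and mitochondrial ribosome), the 250 bases before their RefSeq start sites (GRCm38.p6) were searched on both strands for 4 motifs of 7 bases. They were CCGGAAG, the core bound by ETS factors such as GABP, CATGCGC, part of the NRF1 site, AAGGTCA, the core of the ERR site, and TGTTTAC, the core bound by FoxO factors. Promoters were found for 11354 of the 14178 genes. The ETS core was in 12.2% of them all, in 15 of 35 cytosolic ribosomal promoters (42.9%), 13 of 58 mitochondrial ribosomal promoters (22.4%), 8 of 32 promoters of complexes II to V (25%) and 3 of 29 of complex I (10.3%). In other lists searched it was in 10 of 31 proteasome (32.3%), 1 of 9 matrix crosslinking (11.1%), 0 of 15 fetal and 2 of 27 FoxO list promoters (7.41%). Among the genes of smallest p it was in 1 of 8 promoters with a positive (12.5%) and 0 of 8 with a negative difference. The NRF1 motif was in 5.33% of all, in 7 of 32 of complexes II to V (21.9%), 7 of 58 mitochondrial ribosomal (12.1%), 3 of 29 complex I (10.3%) and 2 of 35 cytosolic ribosomal promoters (5.71%). The ERR motif was in 3.02% of all, in 3 of 29 complex I (10.3%), 2 of 32 complex II to V (6.25%), 3 of 58 mitochondrial ribosomal (5.17%) and 1 of 35 cytosolic ribosomal promoters (2.86%). In the proteasome list the NRF1 and ERR motifs were each in 3 of 31 promoters (9.68%). In the FoxO list NRF1 was in 2 (7.41%) and ERR in 0 of 27. Both were in 0 of 9 matrix crosslinking and 0 of 15 fetal promoters. The FoxO core was in 2.2% of all, in 4 of 27 promoters of FoxO factors and their targets (14.8%) and in 0 of 29 complex I, 1 of 32 complex II to V (3.12%), 2 of 58 mitochondrial ribosomal (3.45%) and 1 of 35 cytosolic ribosomal promoters (2.86%). A match describes the letters of the window and is not evidence of binding.

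The 150 bases before the start are printed for 1 gene of each of 4 kinds, the cytochrome oxidase assembly factor *Cox16*, the mitochondrial ribosomal gene *Mrpl22*, the cytosolic ribosomal gene *Rpl35* and the complex I gene *Ndufa6*. Each is written 5′ to 3′ in the gene's direction, with the motifs in capitals. All 4 hold a motif, while each motif was absent from most promoters of every list searched, so they are not typical members. The windows are chr12:81485138-81485287 (minus strand), chr11:58171514-58171663 (plus strand), chr2:39005132-39005281 (minus strand) and chr15:82354292-82354441 (minus strand).
Cox16: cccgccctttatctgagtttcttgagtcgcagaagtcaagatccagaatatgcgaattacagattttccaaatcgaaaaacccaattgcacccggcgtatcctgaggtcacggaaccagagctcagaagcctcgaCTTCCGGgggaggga
Mrpl22: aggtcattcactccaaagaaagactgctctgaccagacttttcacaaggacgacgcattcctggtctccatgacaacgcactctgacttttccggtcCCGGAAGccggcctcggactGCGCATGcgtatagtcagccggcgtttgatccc
Rpl35: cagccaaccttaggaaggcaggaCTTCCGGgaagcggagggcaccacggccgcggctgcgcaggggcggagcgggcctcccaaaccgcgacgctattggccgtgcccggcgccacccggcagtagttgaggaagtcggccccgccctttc
Ndufa6: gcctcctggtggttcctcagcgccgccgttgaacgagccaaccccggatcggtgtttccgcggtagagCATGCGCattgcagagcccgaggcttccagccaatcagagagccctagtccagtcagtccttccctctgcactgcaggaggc
The capitals are an ETS core on the reverse strand beginning 15 bases before the start in *Cox16*, an ETS core at 53 and a reversed NRF1 motif at 33 bases in *Mrpl22*, a reversed ETS core at 127 bases in *Rpl35* and an NRF1 motif at 82 bases in *Ndufa6*.

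**Figure D3:**
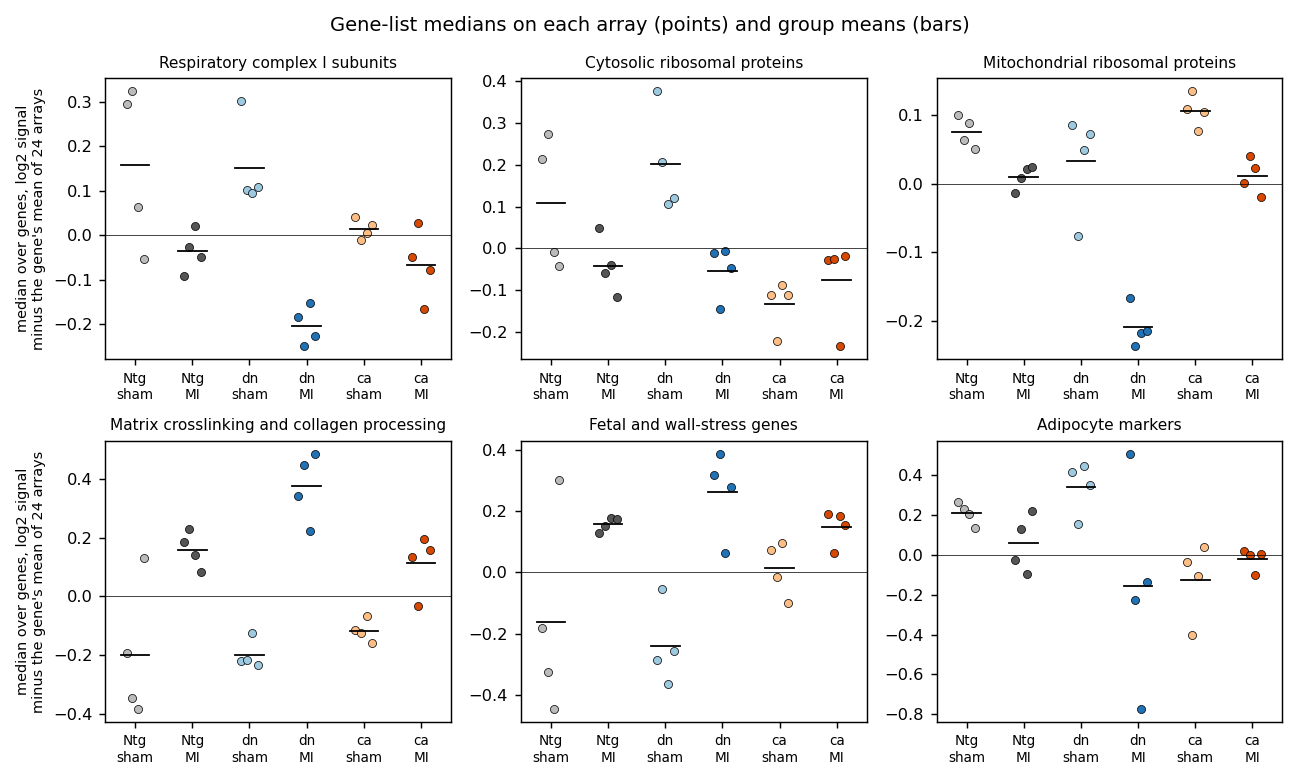
Median over the genes of 6 lists on each array (points; bars are group means), as log2 signal minus each gene's mean of 24 arrays, in Ntg, dnPI3K (dn) and caPI3K (ca) hearts. Mitochondrial ribosomal genes are lowest on the 4 dnPI3K MI arrays, cytosolic ribosomal genes are highest on the dnPI3K sham arrays and on 2 Ntg sham arrays, and the matrix list has its highest group mean in dnPI3K MI.

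Lists of fuel-handling genes gave differences of unequal size. Among those given here, medians ran from 0.06 for glycolysis and glucose uptake to 0.22 for branched-chain amino acids and ketones. Fatty acid uptake and oxidation had a median MI effect of -0.36 in dnPI3K hearts, with 20 of 41 genes called lowered, and -0.27 in caPI3K hearts, with 0 called. Its median difference of 0.13 was 0.01 after quantile normalization. *Eci1*, an isomerase for unsaturated fatty acids, fell by 0.88 in dnPI3K hearts and was at 0.52 (SE 0.18) in the difference. *Acot13*, a mitochondrial thioesterase, was at 0.41 (SE 0.11). *Ech1*, another beta-oxidation isomerase, fell by 0.80 in dnPI3K hearts, with an effect of -0.41 in caPI3K hearts. *Acadm*, the medium-chain dehydrogenase, had a difference of 0.22 that turned to -0.02 after quantile normalization.

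Breakdown of branched-chain amino acids and ketones had 7 of 21 genes with a positive difference at an unadjusted p below 0.05 (33.3%), 0 negative, and a median of 0.22, which was 0.16 with 6 genes after quantile normalization. *Bckdhb*, a subunit of the branched-chain keto acid dehydrogenase, read 12.10, 11.82, 11.99 and 12.15 after sham and 11.46, 11.28, 11.29 and 11.08 after MI in dnPI3K hearts. In caPI3K hearts it read 11.54, 11.62, 11.44 and 11.61 after sham and 11.33, 11.47, 11.49 and 11.26 after MI, which overlap. Its difference was 0.57 (SE 0.16, limma adjusted p = 0.181). *Pcca*, which carboxylates propionyl-CoA, was at 0.51 (SE 0.15) and *Mcee*, the epimerase of the next step, at 0.50 (SE 0.14).

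In the citric acid cycle 15 of 20 genes were called lowered in dnPI3K hearts and 0 in caPI3K hearts, but 1 difference, that of *Suclg1* (0.23), was at an unadjusted p below 0.05, and the list median of 0.17 turned negative after quantile normalization, at -0.02. Glycolysis and glucose uptake had 3 genes in each direction and a median of 0.06, but 1 positive and 5 negative and a median of -0.06 after quantile normalization. *Slc2a4*, the insulin-regulated glucose transporter, was at 0.40 (SE 0.14) and the muscle enolase *Eno3* at 0.40 (SE 0.14), both lowered by MI in dnPI3K hearts. *Aldoc* was at -1.98 (SE 0.72), but it is dim, with group means of 5.64 to 7.15. Among the regulators of mitochondrial genes, *Tfam*, which packages and transcribes mitochondrial DNA, fell by 0.34 in dnPI3K hearts and was at 0.28 (SE 0.10), and the muscle regulator *Perm1* was at -0.35 (SE 0.16). *Ppargc1a*, the PGC-1 alpha coactivator, had a difference of 0.46 (95% interval -0.10 to 1.03) and *Ppara* one of 0.41 (0.00 to 0.82), and both fell in dnPI3K hearts, by 0.64 and 0.59. *Klf15*, a regulator of fasting metabolism, had a difference of 0.33 and *Bdh1*, the mitochondrial ketone dehydrogenase, one of 0.08.

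Antioxidant genes had 12 positive and 2 negative differences among 41 at an unadjusted p below 0.05 (29.3% and 4.88%). *Gstk1*, a mitochondrial and peroxisomal glutathione transferase, read 12.35, 12.22, 12.26 and 12.42 after sham and 11.35, 11.12, 11.55 and 11.14 after MI in dnPI3K hearts, a fall of 1.02, and 11.48 to 12.16 over the caPI3K arrays. Its difference was 0.71 (SE 0.20). *Prdx3*, the mitochondrial peroxiredoxin, was at 0.45 (SE 0.13). *Txnrd1*, cytosolic thioredoxin reductase, rose by 0.57 in dnPI3K hearts and stood at -0.71 (SE 0.20). All 3 had a limma adjusted p of 0.181. After quantile normalization the list had 7 positive and 2 negative genes, and without the arrays with Y-linked signal 3 and 2.

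Of 37 proteasome subunits, 12 had a positive and 2 a negative difference at an unadjusted p below 0.05 (32.4% and 5.41%), and 11 were called lowered in dnPI3K hearts. The median difference of 0.14 was 0.07 after quantile normalization, with 6 and 2 genes, and 0.12 without the arrays with Y-linked signal, with 5 and 0. *Psmb7*, a catalytic subunit, read 14.24, 14.04, 14.04 and 14.08 after sham and 13.69, 13.44, 13.34 and 13.62 after MI in dnPI3K hearts and between 13.95 and 14.19 on all caPI3K arrays. The dnPI3K MI arrays stood below the rest, and the difference was 0.48 (SE 0.11, limma adjusted p = 0.101). *Psmb3* (0.36, SE 0.10) and *Psmb6* (0.28, SE 0.08) followed.

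The PI3K pathway itself gave few differences. Of 47 genes of insulin, IGF1 and PI3K signalling, 4 were positive and 1 negative at an unadjusted p below 0.05 (8.51% and 2.13%), with a median of -0.02. *Irs1*, the adaptor below the insulin receptor, was at 0.45 (SE 0.16), *Igfbp3* at 0.55 (SE 0.20) and *Eif4ebp1*, a translation repressor, at 0.39 (SE 0.15). *Pik3ca* read 10.19 to 10.86 over the 16 arrays with a difference of 0.17 (95% interval -0.27 to 0.60), and *Pik3r1* had one of 0.29 (-0.17 to 0.75). It is not known here if these probe sets also detect transgene RNA. *Igf1* rose by 0.59 in dnPI3K hearts and had an effect of 0.17 in caPI3K hearts, a difference of -0.41 (-0.88 to 0.05).

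FoxO factors and their targets had a median difference of 0.18 over 31 genes, with 4 positive and 1 negative at an unadjusted p below 0.05 (12.9% and 3.23%). *Ccng2*, a cyclin that holds back division, fell by 0.41 in dnPI3K hearts and was at 0.43 (SE 0.14), and the cell cycle inhibitor *Cdkn1b* was at 0.56 (SE 0.21). *Foxo1* had a difference of 0.03 (95% interval -0.27 to 0.34) and *Foxo3* of 0.30 (-0.14 to 0.74), and both were negative with the mean over probe sets, at -0.04 and -0.08.

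Cardiac transcription factors had *Hopx*, a homeodomain-only cofactor that restrains SRF, at 0.70 (SE 0.17, limma adjusted p = 0.149) and *Srf* itself, which drives actin and other contractile genes, at -0.40 (SE 0.12). *Hopx* fell by 0.78 and *Srf* rose by 0.35 in dnPI3K hearts, and neither was called in caPI3K hearts. *Nkx2-5* was at -0.39 (SE 0.14). The endothelin receptor *Ednrb* rose by 0.91 and the adrenergic receptor kinase *Grk5* by 0.82 in dnPI3K hearts, with differences of -0.55 (SE 0.16) and -0.60 (SE 0.21). The ligand *Edn1* rose in caPI3K hearts by 0.72 and was at 0.59 (SE 0.22). *S100a10*, which docks plasminogen at the cell surface, rose by 0.71 in caPI3K hearts and was at 0.64 (SE 0.18), and the thrombin receptor thrombomodulin, *Thbd*, was at 0.45 (SE 0.18).

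Contraction and calcium genes gave few differences at an unadjusted p below 0.05. Of 25 sarcomere genes 2 were positive and 0 negative, with a median of 0.12, and after quantile normalization 0 were positive and 4 negative, with a median of -0.05. The M-band protein *Myom2* was at 0.44 (SE 0.18), the mitochondrial creatine kinase *Ckmt2* at 0.24 (SE 0.11) and cardiac troponin I, *Tnni3*, at 0.26 (SE 0.13). Of 26 calcium handling genes 2 were positive and 1 negative, with a median of -0.04, and 0 of either after quantile normalization. The negative one was *Camk2g*, a calcium/calmodulin-dependent kinase, at -0.42 (SE 0.19). *Myh6*, the alpha myosin heavy chain, had a difference of 0.12 that became -0.04 after quantile normalization. *Atp2a2*, the calcium pump of the sarcoplasmic reticulum, fell by 0.31 in dnPI3K hearts and was at 0.24 (95% interval 0.00 to 0.47), or 0.05 after quantile normalization. *S100a1*, a calcium sensor that stimulates that pump, was at 0.34 (SE 0.10), and *Pln*, its inhibitor phospholamban, at 0.21 (-0.02 to 0.45).

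Immune lists gave medians above 0, with few interferon and antigen presentation genes at an unadjusted p below 0.05. The difference was positive for 30 of 35 interferon and 12 of 16 antigen presentation genes, against 6964 of all 14178. The interferon response had a median difference of 0.29 over 35 genes, with 2 positive and 1 negative at an unadjusted p below 0.05, and antigen presentation one of 0.31 over 16 genes with 0 of either. Both medians turned negative without the caPI3K sham arrays with Y-linked signal, at -0.13 and -0.07. Chemokines, cytokines and complement had 5 positive and 1 negative of 35 at an unadjusted p below 0.05 (14.3% and 2.86%). Among them were *Il15* at 0.71 (SE 0.24), which fell by 1.01 in dnPI3K hearts, and *Il33* at 0.69 (SE 0.26). The negative one was the TWEAK receptor *Tnfrsf12a* at -0.69 (SE 0.25). In the interferon list *Ifi35* was at 0.48, *Ifih1*, a sensor of viral RNA, at 0.71 and the exonuclease *Isg20* at -0.79. In antigen presentation *H2-Aa* was at 1.45 (SE 0.74), *H2-Ab1* at 1.08 and *B2m* at 0.47.

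The arrays with Y-linked signal bore on other lists too. Without them fatty acid genes had 1 positive and 0 negative genes at an unadjusted p below 0.05, branched-chain amino acid and ketone genes 5 and 0, collagens 0 and 1, elastic fibre genes 1 and 0 with a median of -0.04, the PI3K pathway 1 and 0 and the FoxO list 2 and 0. Adipocyte markers had 1 and 0 with a median of 0.29 and mesothelial markers 0 and 2 with a median of -1.005. The median of matricellular genes turned to 0.04 and that of the regulators of mitochondrial genes to -0.01.

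**Figure D4:**
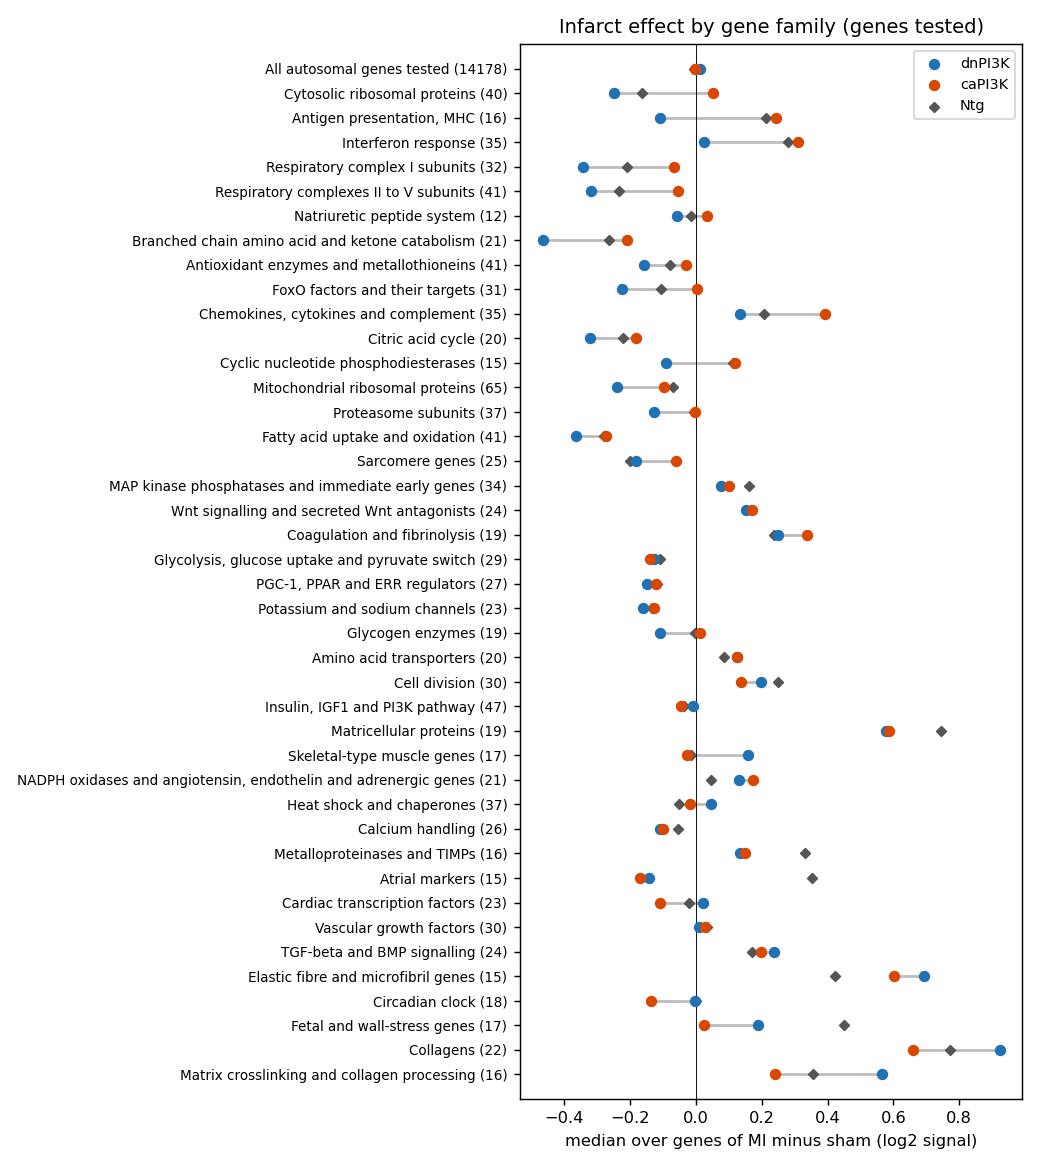
Median MI effect (MI minus sham, log2 signal) over the genes of each of the 41 families with at least 10 genes tested, in dnPI3K, caPI3K and Ntg hearts, ordered by the median difference with all autosomal genes at the top. Respiratory chain and mitochondrial ribosomal families lie further below 0 in dnPI3K than in caPI3K hearts, cytosolic ribosomal genes lie below 0 in dnPI3K and at 0.05 in caPI3K hearts, and collagens and matrix crosslinking lie further above 0.

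Markers of other cell types moved with some of these results. Of 8 adipocyte markers tested of 13 listed, 4 had a positive difference at an unadjusted p below 0.05 (50%) and the median was 0.37. *Adipoq*, the hormone adiponectin, read 10.13, 9.45, 9.63 and 9.47 after sham and 9.67, 8.34, 7.26 and 8.24 after MI in dnPI3K hearts, and 8.12, 7.45, 7.93 and 8.78 after sham and 9.37, 8.73, 8.99 and 8.52 after MI in caPI3K hearts. It fell by 1.29 in dnPI3K hearts, where the groups overlap through replicate 1 of MI, and had an effect of 0.83 in caPI3K hearts (limma adjusted p = 0.248), a difference of 2.12 (SE 0.45, adjusted p = 0.0799). *Car3*, carbonic anhydrase of fat and slow muscle, was at 1.89 (SE 0.55) and *Retn*, resistin, at 1.24 (SE 0.48). The summed signal of the 8 markers, which *Lpl* and *Fabp4* of heart muscle and vessels share, was 93854 to 118742 on dnPI3K sham, 82588 to 91487 on dnPI3K MI, 89097 to 92275 on caPI3K sham and 78963 to 94729 on caPI3K MI. The part of attached fat in *Adipoq*, *Retnla* and *Gnmt* was not tested.

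Mesothelial and epicardial markers, of the outer lining of the heart, had a negative difference for all 11 tested, with a median of -0.82. Their summed signal was 2262 to 2934 on dnPI3K sham, 3430 to 4430 on dnPI3K MI, 2726 to 2864 on caPI3K sham and 2560 to 3071 on caPI3K MI, so dnPI3K MI stood above the other groups. *Wt1*, the epicardial transcription factor, rose by 0.80 in dnPI3K hearts and was at -0.93 (SE 0.33), and 2 of the 11 were at an unadjusted p below 0.05. *Efemp1*, a fibulin, fell in both genotypes, and its difference of -0.68 was -0.04 without the arrays with Y-linked signal. *Penk*, the enkephalin precursor, fell by 1.85 in caPI3K hearts, and its difference of -1.05 was 0.05 without those arrays.

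Fibroblast markers had a median difference of 0.03 over 21 genes, with 9 called raised by MI in dnPI3K and 6 in caPI3K hearts, and summed to 154485 to 173501 on dnPI3K sham, 193736 to 230087 on dnPI3K MI, 128054 to 145560 on caPI3K sham and 170187 to 188143 on caPI3K MI. The sums did not overlap between MI and sham in either genotype. Endothelial markers were at 0.07 over 20 genes, with 4 positive and 1 negative at an unadjusted p below 0.05 (20% and 5%). Over all genes these shares were 5.48% and 4.68%. Of the endothelial genes, *Sox18* was at 0.46 (SE 0.15). Macrophage markers were at 0.09 over 27 genes, with 0 at that level. Whether the amounts of these cells took part in the matrix results was not tested.

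The responses also shared a core. Of the 153 genes called in caPI3K hearts, 100 were also called in dnPI3K hearts, which is 65.4% of the caPI3K calls and 7.43% of the dnPI3K calls, and all 100 had the same direction in both. Over all genes, 9.49% were called in dnPI3K and 1.08% in caPI3K hearts. Among the 100 shared genes, 7 were at an unadjusted p below 0.05 in the difference, a level that 10.2% of all genes reached. These 7 are named here after their values were seen. *Comp* (2.29 in dnPI3K and 1.43 in caPI3K hearts) and the lysyl oxidase *Lox* (1.86 and 1.07) rose more in dnPI3K hearts by their point values. *Col14a1* (0.86 and 1.75), the secreted Wnt modulator *Sfrp2* (1.40 and 2.44) and *Ccn2*, connective tissue growth factor (0.58 and 1.01), rose more in caPI3K hearts. *Rpl3l*, a muscle ribosomal protein, fell by 1.10 in dnPI3K and 0.57 in caPI3K hearts, and *Efemp1* fell by 0.81 in dnPI3K hearts and fell by 1.49 in caPI3K hearts.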

How the data were processed

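RNA of whole mouse hearts was measured on Affymetrix arrays, 24 in all, each with 45101 probe sets. The authors deposited a table of signal intensity, made with MAS5 per the submitters' processing notes; version and settings: not given in the sources used here. Linear signal was turned into log2(signal + 11.2), where 11.2 is the median signal divided by 10, which understates the changes of dim genes. No further scaling was applied. Probe sets above the 40th percentile of their array on at least 4 arrays were kept, and a gene was represented by its probe set of highest mean, named through the platform annotation, which can be old. Of all probe sets, 34945 had 1 gene, 932 several and 9160 none. Names and chromosomes come from RefSeq (GRCm38.p6).

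A linear model with 1 mean per group was fitted to all 24 arrays with limma 3.58.1 in R 4.3.3 (18 residual degrees of freedom, intensity trend), and p-values were adjusted by Benjamini-Hochberg over 14763 genes. Counts cover the 14178 autosomal genes, and 5934 probe sets without a gene name were tested apart, with 0 called. The script was tested on simulated data. Groups came from the sample titles; 1 tag of the caPI3K MI samples reads as sham, and title and description were followed. Replicates are numbered in accession order and pair nothing. Named genes are the 10 of smallest p in each direction, a fixed set of heart genes (*Timp1* is X-linked and left out) and up to 3 of smallest p in the lists described. The members, lists and rules were chosen with earlier results of these data known. Alternatives covered the pseudocount, the filter, quantile normalization, the mean of probe sets, the arrays fitted, the variance trend, array weights, a term for array numbers under 1000, the sham arrays numbered 415 to 418, the arrays with Y-linked signal, the adjustment and each array in turn. The array numbers are those that end the sample titles, and no label says what they count. The caPI3K sham arrays carry 1410 to 1417, above all other arrays, of which the highest carries 1191. That group and its range of numbers cannot be told apart, and the term for numbers under 1000 does not separate them. With 4 arrays per group, the count of arrays limits the precision. Figures were drawn with matplotlib 3.10.9.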

Additional observations from a re-analysis of the deposited data

Results flagged for a closer look

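Among 180 groups of 4 arrays examined for the genes named by rule, 11 had 1 array far from the other 3 by Dixon's test, where chance gives about 1 in 20. Among the genes of smallest p, *Retnla* was 10.43 on dnPI3K sham replicate 1 against 10.09 to 10.14 on the others, and *Mybpc2* 8.7 on dnPI3K sham replicate 3 against 9.13 to 9.2. On caPI3K MI replicate 1, *Prr15l* read 5.18 against 3.92 to 4.05 and *Trp53bp1* 10.46 against 10.63 to 10.65.

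*Nppa* was 15.1 on caPI3K MI replicate 3 against 15.4 to 15.45. *Pln* was 15.75 on caPI3K sham replicate 1 against 15.65 on the others, and *Pik3ca* 10.7 on the same array against 10.55 to 10.57. *Ppargc1a* read 10.87 on caPI3K MI replicate 2 against 10.37 to 10.43. *Foxo3* stood apart in 2 groups, at 11.32 on dnPI3K MI replicate 3 against 10.74 to 10.81 and at 11.2 on caPI3K sham replicate 2 against 10.41 to 10.52. *Penk* was 8.53 on caPI3K sham replicate 4, the array of that group without Y-linked signal, against 9.83 to 10.08 on the other 3.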

How the results depend on the processing

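The count of genes called in the difference was 0 except for 61 with the 16 arrays alone, 43 with array weights and 0 to 4 when each array was left out in turn. The count of MI calls in caPI3K hearts, 153, became 101 with the mean of probe sets, 267 with the 16 arrays alone, 61 without the intensity trend, 403 with array weights, 92 with array numbers under 1000 as a term, and 9 without the arrays with Y-linked signal, and ran from 62 to 180 when each array was left out. The dnPI3K count, 1346, was 637 without the sham arrays numbered 415 to 418 and 813 to 1318 when each array was left out, lowest without dnPI3K sham replicate 1. Differences of small size turned sign: after quantile normalization *Myh6* (-0.0432), *Acadm* (-0.022) and *Bdh1* (-0.0143); with the mean of probe sets *Foxo1* (-0.0437), *Foxo3* (-0.0775) and *Bdh1* (-0.107). Without the sham arrays numbered 415 to 418, *Col1a1* (0.168), *Col3a1* (0.0994) and *Postn* (0.0138) turned, and without the arrays with Y-linked signal *Postn* (0.191), *Ankrd1* (0.0612) and *Penk* (0.0509). With each array left out *Foxo1* ran from -0.0388 to 0.1075, *Ankrd1* from -0.1173 to 0.0142 and *Bdh1* from -0.00588 to 0.2314. The cause of these shifts was not tested. No paired analysis was possible because the replicates are numbered in accession order and the array numbers are not shared between groups.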

Other observations

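A few lists outside the comparisons above held single genes with large point differences. Among heat shock and chaperone genes the testis-type Hsp70 *Hspa1l* was at -1.46, and among neutrophil markers the granule enzyme *Mpo* was at 1.61. *Mpo* is dim, with group means of 5.33 to 7.14. Among fibroblast markers *Dpt*, dermatopontin of the matrix, was at 0.68 and the surface protease *Fap* at 0.53. None of them passed the test (limma, Benjamini-Hochberg). Of 18 circadian clock genes, 2 had a negative difference and 0 a positive one at an unadjusted p below 0.05, with a median of -0.21. Without the caPI3K sham arrays with Y-linked signal that median was 0.0078, and without the sham arrays numbered 415 to 418 it was -0.07, with 0 genes at that level in both. Of 20 amino acid transporters 4 were negative and 0 positive, with a median of -0.01, and 1 was negative without the arrays with Y-linked signal.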
